A study of Mus musculus with 5 samples.

Results

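Cytosolic ribosomal protein genes encode the proteins of the large and small subunits of the cytoplasmic ribosome. The members were protein-coding genes with a symbol of the numbered Rpl or Rps series, or of the set Rplp0, Rplp1, Rplp2 and Rpsa, for which the array holds a probe set naming no other gene. Each was read on its probe set of highest mean signal. There were 48 such genes among the 18194 genes with a probe set of their own, 26 of the large subunit and 22 of the small subunit. Of them, 43 encode standard ribosomal proteins and 5 are paralogs (Rpl3l, Rpl7l1, Rpl22l1, Rpl39l and Rps27l). A further 27 standard ribosomal protein genes were found only on probe sets that name several genes.

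All RNA came from NIH/3T3 mouse embryonic fibroblasts. Those used for immunoprecipitation stably carry a pair of retroviral vectors, pBSwitch together with pSLHGC-MYC-AUF1 p42. From these vectors, mifepristone switches on the p42 isoform of the RNA-binding protein AUF1 with an amino-terminal myc tag. Ribonucleoprotein immunoprecipitates (RNP-IPs) on anti-c-myc agarose beads gave 2 arrays labelled induced (1 nM mifepristone, 24 h) and 2 labelled uninduced, and total RNA gave 1. The sources used here do not say whether the total RNA was from induced cells, nor does the paper say whether those cells carried the vectors. The design concerns an overexpressed, tagged isoform and not the endogenous protein. It asks which mRNAs come down with tagged AUF1 p42 beyond what the beads take up without induction and beyond the RNA of the cell. Values are RMA-normalised log2 signals, and a log2 fold is a difference of such signals. The authors labelled the same amount of RNA for each array, although the RNP-IPs of uninduced cells had a lower RNA concentration. A signal is therefore a share of the RNA loaded. In such bulk precipitates, less of an mRNA in the cells, less of it bound and more of other mRNAs bound cannot be told apart.

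Ribosomal proteins are needed in matched amounts, and their mRNAs are among the most abundant of a growing fibroblast. Most of these mRNAs begin with a 5′ terminal oligopyrimidine (TOP) tract, a C followed by further pyrimidines, through which mTOR signalling sets their translation as a group. Rplp0, the base of the stalk that recruits translation factors, also served the study as a reference mRNA when mRNA half-lives were measured by RT-PCR.

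The 5′ pyrimidine run is shown because part of the members carry it and it took no part in their choice. A window of 15 bases before and 15 bases from each start annotated by RefSeq (GRCm38.p6) was searched for at least 7 consecutive bases that are each C or T on the transcribed strand. Of 43 members with an entry, 24 had such a run (55.8%), against 21.3% of the 27025 genes of the same table. On the opposite strand it was found in 6.98% of the members and in 23.1% of all genes. The windows below belong to members on which the results turn, written 5′ to 3′ in lower case with the run in capitals.
Rps6, chr4:86857353-86857382, minus strand: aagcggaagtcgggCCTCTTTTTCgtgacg
Rps10, chr17:27635230-27635259, minus strand: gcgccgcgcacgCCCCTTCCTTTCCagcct
Rpl35, chr2:39005117-39005146, minus strand: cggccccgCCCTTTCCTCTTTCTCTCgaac
Rpl38, chr11:114668565-114668594, plus strand: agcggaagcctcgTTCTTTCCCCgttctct
Rpl27a, chr7:109519180-109519209, plus strand: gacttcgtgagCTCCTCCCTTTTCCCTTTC
Rplp0, chr5:115559452-115559481, plus strand: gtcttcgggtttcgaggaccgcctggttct
Rpl11, chr4:136053379-136053408, minus strand: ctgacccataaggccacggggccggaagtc
Rpl7l1, chr17:46782642-46782671, minus strand: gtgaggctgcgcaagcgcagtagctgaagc
The last 3 windows held no run of this length, which says only that these letters are not in this window.

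The members had high signals in all kinds of RNA. Of the 48, 42 had a mean of at least log2 8 over the 5 arrays and are called bright below, from 8.46 (Rpl7l1) to 14.16 (Rps2, at the mRNA entry channel). The highest signal on any array was 14.86. The other 6 (Rpl12, Rpl39, Rps27, Rps16, Rpl39l and Rpl3l) had means of 3.16 to 5.55. The first 4 of these are standard ribosomal protein genes whose probe sets shared with other genes were bright, with means of 12.70 to 14.45. Counts are given over the 48 genes and, where it matters, over the 42. Signals of different probe sets were not ranked as amounts of mRNA.

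Facts of the whole series bear on the members as follows. Of 8 fibroblast markers, 6 were at log2 8 or above on every array, and 7 of 9 markers of other cell types were under log2 5 on every array. Hnrnpd, the gene of AUF1, was at 6.72 and 7.39 on the arrays labelled induced, 11.35 and 11.85 on those labelled uninduced and 10.60 for total RNA. Its log2 fold against the other 3 arrays was -4.21 (SE 0.46, adjusted p = 0.114 by limma), opposite to a gene switched on by the inducer, so groups are named by their labels throughout. The sources used here do not say whether the Hnrnpd probe sets lie within the vector's insert. The Gapdh 5′ control was at 8.18 on labelled induced array 1, 7.81 on labelled uninduced array 2 and 6.93 for total RNA, but at 4.24 on labelled induced array 2 and 3.65 on labelled uninduced array 1. The last 2 arrays stood apart within their groups, and the median and the count below 0 are given without them too.

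The central comparison set the 2 arrays labelled induced against the other 3. None of the 48 members was called higher or lower by the study's rule, a fold of at least 3 with an adjusted p under 0.5. By this rule 1.32% of all genes (2.53% of bright genes) were called higher and 2.36% (5.53%) lower. Most members lay slightly below 0, with 38 of 48 there (79.2%, against 49.3% of all genes) and 33 of the 42 bright ones (78.6%, against 55.8% of bright genes). The median log2 fold was -0.25 over the 48 members and 0.0016 over all genes. Among bright genes it was -0.26 for the 42 members and -0.12 for all 3166. The quartiles of the bright members were -0.62 and -0.10, closer together than the -0.72 and 0.44 of all bright genes. None of the 48 passed an adjusted p of 0.05 in limma, and 11 had an unadjusted p under 0.05 (22.9%, against 13.4% of all genes, and 26.2% of the bright members against 27.6% of bright genes).

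**Figure D1:**
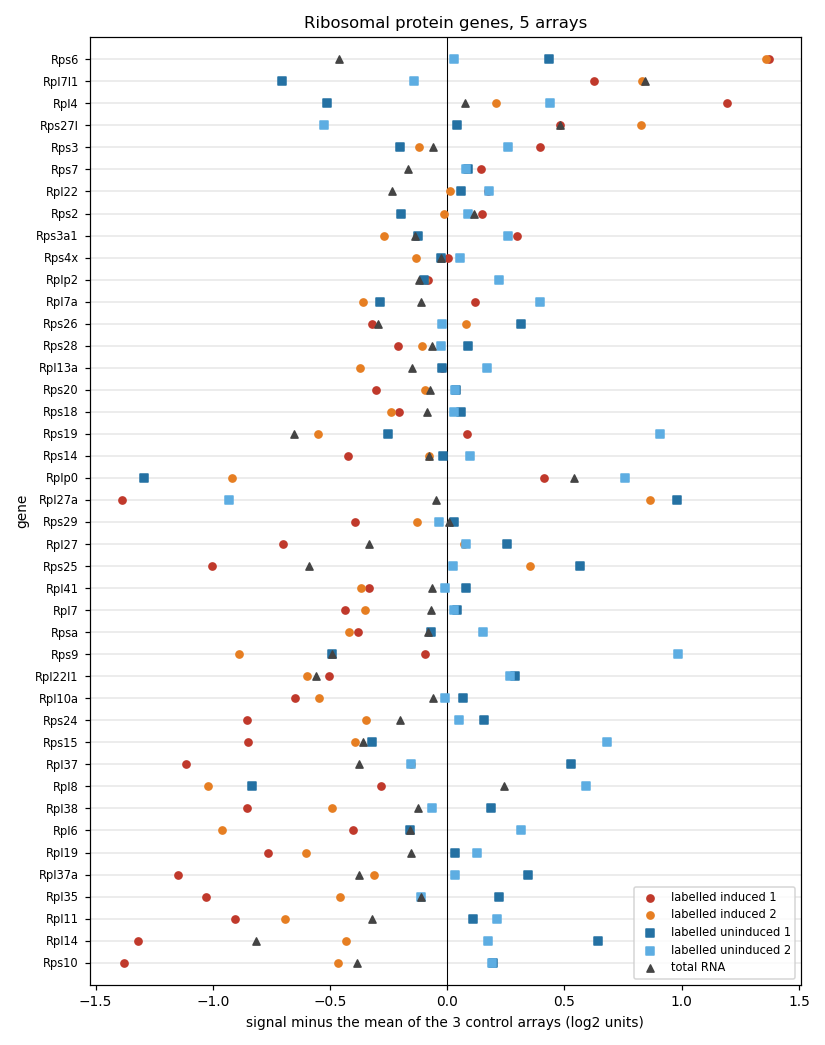
Signal of each of the 42 bright ribosomal protein genes (y axis) on the 5 arrays, as the difference from the mean of the 3 control arrays (x axis, log2 units), with genes ordered by log2 fold, circles for arrays labelled induced, squares for those labelled uninduced and a triangle for total RNA. Both circles lie left of all 3 controls in 16 genes and right of them in Rps6 alone.

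At an adjusted p under 0.5 with no limit on the fold, a threshold that accepts many false calls, 12 members were lower (25% of members, against 7.95% of all genes, and 28.6% of bright members against 17.3% of bright genes). At the same threshold 1 was higher (6.52% of all genes, 12.2% of bright genes). Of the 12, 8 were among the 22 bright large-subunit members and 4 among the 20 bright small-subunit members. The 12 became 6 without labelled uninduced array 1 and 5 without labelled uninduced array 2. Both arrays labelled induced lay below all 3 others for 16 members (33.3%, against 13.4% of all genes, and 38.1% of bright members against 25% of bright genes) and above them for 1 (12% of all genes, 18.5% of bright genes). The median gap between the 2 arrays of a group was 0.36 (labelled induced) and 0.30 (labelled uninduced) over the bright members. In 18 of the 42 the log2 fold exceeded both replicate gaps in size, 14 of them lower and 4 higher (42.9%, against 46% of bright genes, with 33.3% against 25.8% lower and 9.52% against 20.2% higher).

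Rpl10a, the protein of the mobile L1 stalk, was the lower member with the smallest adjusted p. It was at 13.13 and 13.23 on the arrays labelled induced, 13.85 and 13.77 on those labelled uninduced and 13.72 for total RNA. The groups did not overlap, and its log2 fold was -0.60 (SE 0.067, adjusted p = 0.116), which is 1.51-fold lower. Rpl19, a protein near the exit of the peptide tunnel, was at 12.28 and 12.44 (labelled induced), 13.08 and 13.17 (labelled uninduced) and 12.89 (total RNA). Both arrays labelled induced were again lowest, with a log2 fold of -0.68 (SE 0.11, adjusted p = 0.180). Rpl11, which binds 5S rRNA with Rpl5 and restrains Mdm2 when ribosome assembly is disturbed, was at 11.43 and 11.64, then 12.44 and 12.54, then 12.01 in the same order. Its total RNA lay between the RNP-IPs of either label, with a log2 fold of -0.80 (SE 0.20, adjusted p = 0.294). Its partner Rpl5 has only shared probe sets, 3 in number, which differed by -0.26 to -0.00 (log2).

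Rpl35, a protein at the tunnel exit, was at 12.68 and 13.25 on the arrays labelled induced, 13.93 and 13.60 on those labelled uninduced and 13.60 for total RNA. All 5 of its bright probe sets had log2 folds of -0.85 to -0.74 (adjusted p = 0.384 for the one used here). Rpl38, known for its part in the translation of Hox mRNAs, was at 12.88 and 13.24, then 13.92 and 13.67, then 13.61, with a log2 fold of -0.67 (SE 0.16, adjusted p = 0.285). In both genes labelled induced array 1 was the lowest of the 5 and the other array labelled induced came next. The other lower large-subunit genes were Rpl7 (log2 fold -0.39, adjusted p = 0.166), Rpl41, the smallest ribosomal protein (-0.35, adjusted p = 0.202), and Rpl6 (-0.68, adjusted p = 0.496). In the small subunit they were Rpsa, also known as a laminin receptor (-0.40, adjusted p = 0.281), Rps18, of the subunit's head (-0.22, adjusted p = 0.366), Rps24, a gene mutated in Diamond-Blackfan anaemia (-0.60, adjusted p = 0.441), and Rps29, a small zinc-binding protein of the head (-0.26, adjusted p = 0.488).

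The lowest log2 fold of all members, that of Rps10, did not pass this threshold. Rps10, a protein of the small subunit's head, was at 11.68 and 12.59 on the arrays labelled induced, 13.25 and 13.25 on those labelled uninduced and 12.68 for total RNA. The groups did not overlap, but the arrays labelled induced were 0.91 apart, and the log2 fold of -0.92 had an SE of 0.37 and an adjusted p of 0.526. Its 5 bright probe sets ranged from -0.92 to 0.05. Rpl14 was at 8.89 and 9.77, then 10.85 and 10.38, then 9.39, so that total RNA fell between its arrays labelled induced (log2 fold -0.88, adjusted p = 0.684). The 5 probe sets that Rpl14 shares with another gene were brighter and closer to 0, with log2 folds of -0.24 to -0.11. Rpl37a (-0.73), Rpl8, which lies by the peptidyl transferase centre (-0.65), Rpl37 (-0.63) and Rps15 (-0.62) had adjusted p-values of 0.641 to 0.712.

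Rps6, the small-subunit protein phosphorylated by S6 kinase downstream of mTOR, was the one member that was higher. Its probe set was at 10.53 and 10.52 on the arrays labelled induced, 9.59 and 9.19 on those labelled uninduced and 8.70 for total RNA. The groups did not overlap, and the log2 fold was 1.37 (SE 0.29, adjusted p = 0.251), or 2.58-fold. Without labelled uninduced array 2 it was 1.38 and no longer passed the threshold. Other probe sets of Rps6 did not share this rise. All 8 bright probe sets annotated to Rps6 together with another gene had log2 folds below 0, from -0.58 to -0.14, and the brightest of them was at 13.98 and 13.93, then 14.16 and 14.16, then 14.08 (adjusted p = 0.362). The sources used here do not say which stretch of the mRNA each probe set covers.

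Among the other members above 0, Rpl4, which lines part of the peptide tunnel, was at 13.69 and 12.70 on the arrays labelled induced, 11.98 and 12.93 on those labelled uninduced and 12.57 for total RNA. The groups overlapped (log2 fold 0.70, SE 0.45, adjusted p = 0.684). Rpl7l1 (0.73) and Rps27l (0.65), both paralogs, are described below with their parents. Rps3 (0.14) and Rps2 (0.07) at the mRNA entry channel, Rps7 near its exit (0.11), Rpl22 (0.09), Rps3a1 (0.01) and the dim Rpl39 (0.10) were close to 0.

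Brighter members had smaller folds. The 21 bright members with a mean at or above their median of 12.97 ranged from -0.74 to 0.14 (median log2 fold -0.20), and the 21 below it from -0.92 to 1.37 (median -0.55). Whether signals near the top of the scale were compressed was not tested.

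**Figure D2:**
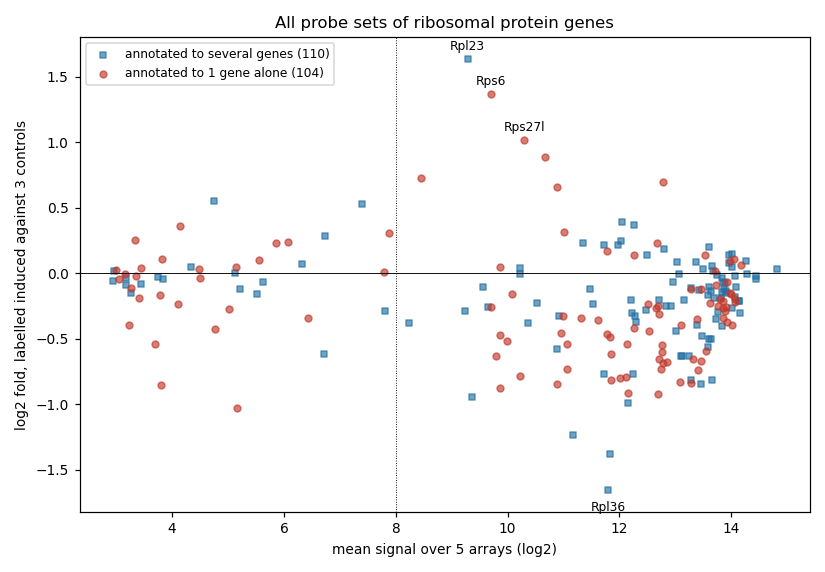
Log2 fold of the arrays labelled induced against the 3 controls (y axis) by mean log2 signal over 5 arrays (x axis) for 214 probe sets of ribosomal protein genes, circles for 104 that name 1 gene alone and squares for 110 that name several, with a dotted line at log2 8. Most bright probe sets of either kind lie just below 0, while 1 probe set of Rpl23 stands at 1.64 and 1 of Rps6 at 1.37.

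All 214 probe sets of these genes were then set beside the 48. Of 77 bright probe sets that name 1 member alone, 61 were below 0 (median log2 fold -0.34), and of 91 bright ones that name several genes, 69 were (median -0.18). In 19 members with at least 2 bright probe sets of their own, 15 had the same sign in all, 12 below 0 and 3 above it (Rpl22, Rps7 and Rps27l). The lowest were those of Rpl36, a large-subunit protein gene with only shared probe sets. Its brightest was at 10.64 and 11.36 on the arrays labelled induced, 12.41 and 12.44 on those labelled uninduced and 12.28 for total RNA. The groups did not overlap on any of its 3 probe sets, with log2 folds of -1.66 to -1.23 (adjusted p = 0.194 to 0.227), and the lowest was the single one of the 214 called in this comparison. Rpl23, also a large-subunit gene on shared probe sets, stood apart on 1 of 4. That one was at 10.35 and 10.19, then 8.98 and 9.53, then 7.38, a log2 fold of 1.64 with an adjusted p of 0.594, while the other 3 differed by 0.03 to 0.15.

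Against the arrays labelled uninduced alone, no member was called (1.38% of all genes higher, 2.65% lower). These arrays are also part of the first comparison, so the values stand beside those above and are no second support. The median log2 fold was -0.27, and 38 of 48 were below 0 (48.3% of all genes). At an adjusted p under 0.5, 13 members were lower (27.1%, against 9.86% of all genes, and 31% of bright members against 21.2% of bright genes) and 4 higher (8.33%, against 7.64%, and 7.14% of bright members against 14.8% of bright genes). The 4 became 1 without either of the arrays labelled induced, and 1 member was called lower without labelled induced array 2. Groups did not overlap for 22 lower members (45.8%, against 18.5% of all genes, and 50% of bright members against 34.7% of bright genes) and 4 higher ones (16.9% of all genes). The higher ones were Rps6 (log2 fold 1.13, adjusted p = 0.222), Rpl7l1 (1.15, adjusted p = 0.313), Rps27l (0.90, adjusted p = 0.440) and, close to background, Rpl12 (0.52, adjusted p = 0.384). Rpl22l1, a paralog of Rpl22, had the smallest adjusted p, at 12.48 and 12.39 against 13.28 and 13.26 (log2 fold -0.83, SE 0.058, adjusted p = 0.132). Its total RNA was at 12.43, level with the arrays labelled induced.

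The arrays labelled uninduced were next set against total RNA, which shows how these mRNAs were represented among those the beads took up without induction. With 1 array of total RNA, its spread is assumed to be that of the RNP-IPs. The members lay slightly above total RNA, with a median log2 fold of 0.17 and 40 of 48 above 0 (83.3%, against 46.4% of all genes). Both arrays labelled uninduced exceeded total RNA for 30 members (62.5%, against 28.6% of all genes and 38.3% of bright genes) and lay under it for 4 (30.6% of all genes). No member was called higher (1.26% of all genes) and 1, Rpl12, was called lower (1.36%). At an adjusted p under 0.5, 7 were higher (14.6%, against 6.76% of all genes, but 11.9% of bright members against 14.4% of bright genes) and 2 lower (8.59% of all genes, 10.5% of bright genes). The count of 7 changed with labelled uninduced array 1 left out, and the matching share of all genes is not given here. The higher ones with bright signals were Rpl22l1 (log2 fold 0.84, adjusted p = 0.182), Rps6 (0.69, adjusted p = 0.458), Rpl11 (0.48, adjusted p = 0.413), Rpl22 (0.36, adjusted p = 0.476) and Rps7 (0.25, adjusted p = 0.378). The lower ones were Rpl12 (-2.40, adjusted p = 0.169) and Rpl7l1 (-1.27, adjusted p = 0.383).

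Between the arrays labelled induced and total RNA the members differed little, with a median log2 fold of -0.09 and 31 of 48 below 0 (48% of all genes). Of the bright members 66.7% were below 0, against 54.9% of bright genes, with nearly equal medians of -0.122 and -0.118. Rps6 was called higher (log2 fold 1.83, SE 0.21, adjusted p = 0.141, 3.55-fold) and Rpl12 lower (-1.87, SE 0.17, adjusted p = 0.123), where 2.03% of all genes were called higher and 4.5% lower. At an adjusted p under 0.5, 9 were lower (18.8%, against 15.1% of all genes, but 19% of bright members against 22.9% of bright genes) and 4 higher (8.33%, against 11.1%). The count of 9 changed with labelled induced array 2 left out, and the matching share of all genes is not given here. Groups did not overlap for 8 higher members (32.3% of all genes) and 20 lower ones (32.2% of all genes, and 45.2% of bright members against 44.2% of bright genes). The bright members with the smallest adjusted p among the lower were Rpl10a (-0.54, adjusted p = 0.184), Rpl7 (-0.33, adjusted p = 0.243) and Rpl19 (-0.53, adjusted p = 0.244). The 4 comparisons share arrays, so their values are given side by side and were not correlated.

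**Figure D3:**
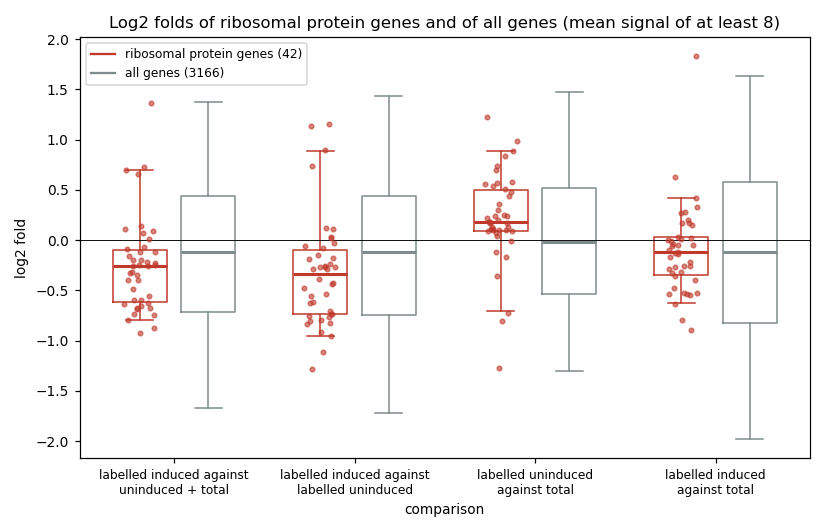
Log2 folds (y axis) of the 42 bright ribosomal protein genes (red, 1 point a gene) and of all 3166 bright genes (grey) in the 4 comparisons (x axis), with boxes from the lower to the upper quartile, a line at the median and whiskers from the 5th to the 95th percentile. The members' boxes are narrower than those of all genes, with medians of -0.26, -0.34, 0.18 and -0.12 from left to right. In the same order, the medians of all bright genes are -0.122, -0.117, -0.019 and -0.118.

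The calls on Rpl12, a protein at the base of the stalk, came from a dim probe set. It was at 4.86 and 4.82 on the arrays labelled induced, 4.48 and 4.16 on those labelled uninduced and 6.72 for total RNA. The 2 probe sets that Rpl12 shares with other genes were bright and did not share this fall. Their log2 folds against total RNA were 0.14 and 0.68 (labelled uninduced) and 0.09 and 0.25 (labelled induced). Of the 46 ribosomal protein probe sets with a mean under log2 8, 6 had total RNA at least 1 log2 unit above all 4 RNP-IPs (13%, against 1.69% of all 40419 such probe sets), a limit chosen after these values were seen. Besides Rpl12 they belonged to Rps24, Rpl30, Rps9 and, with 2 probe sets, Rpl41. That of Rps24 was at 4.12 and 4.96, then 4.88 and 4.60, then 7.23, while the probe set used for the same gene was at 12.14 to 13.15 on all 5 arrays. None of the 168 bright ribosomal protein probe sets had this pattern. In 3 bright ones, of Rpl23, of Rps13 and of the pair Rpl36a and Rpl36al, all 4 RNP-IPs were at least 1 unit above total RNA (1.79%, against 3.14% of all bright probe sets).

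Paralogs are given beside their parent genes, and the differences within pairs were not tested. Rpl7l1, a relative of Rpl7 that acts in assembly of the large subunit, was at 8.79 and 8.996 on the arrays labelled induced, 7.46 and 8.02 on those labelled uninduced and 9.01 for total RNA. The arrays labelled uninduced were the low ones, whereas for Rpl7 it was those labelled induced (12.82 and 12.90, then 13.30 and 13.29, then 13.19). Rps27l, a target gene of p53, was at 11.10 and 11.45, then 10.66 and 10.10, then 11.10. Its arrays labelled uninduced were the lowest too, and its 3 probe sets had log2 folds of 0.65 to 1.02 in the central comparison (adjusted p = 0.559 to 0.676), while the parent Rps27 was dim on its own probe set. Rpl22l1 and Rpl22 had log2 folds of -0.55 (adjusted p = 0.683) and 0.09 (adjusted p = 0.848). Rpl3l and Rpl39l, known from muscle and testis, were at 3.10 to 3.44 on all arrays. Rps4l, a pseudogene in RefSeq and therefore no member, was at 3.13 to 3.49.

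Rplp0, the reference mRNA of the half-life measurements, moved far between RNP-IP arrays of the same label. It was at 13.21 and 11.88 on the arrays labelled induced, 11.50 and 13.55 on those labelled uninduced and 13.33 for total RNA. The log2 fold was -0.25 with a 95% interval of -2.62 to 2.12 (SE 0.85, adjusted p = 0.932), so a difference was not detectable with these arrays. It became 0.41 without labelled induced array 2 and 0.13 without labelled uninduced array 2. The 2 low values fell on the 2 arrays with the low Gapdh 5′ control. The mean of labelled induced array 1 and labelled uninduced array 2 exceeded the mean of the other 2 RNP-IPs by 1.69 log2 units for Rplp0, by 1.14 for Rps9, by 1.08 for Rpl8, by 0.97 for Rpl4 and by 0.90 for Rps19.

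Rpl27a went the other way, by -2.08 on the same measure. It was at 8.42 and 10.67 on the arrays labelled induced, 10.79 and 8.88 on those labelled uninduced and 9.76 for total RNA, while its shared probe set was at 12.82 to 13.13 on all 5 arrays. Rps25, at the mRNA exit (-0.95), and Rpl37 (-0.82) had the same sign. The measure was 4.05 for Gapdh 5′, 2.29 for Gapdh 3′, 4.00 for β-actin 5′ and 1.00 for β-actin 3′. It was at least 0.8 in size for 8 of the 42 bright members (19%) and for 17.2% of all bright genes, and its median over the members was -0.03. The part of RNA quality in these differences was not tested.

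**Figure D4:**
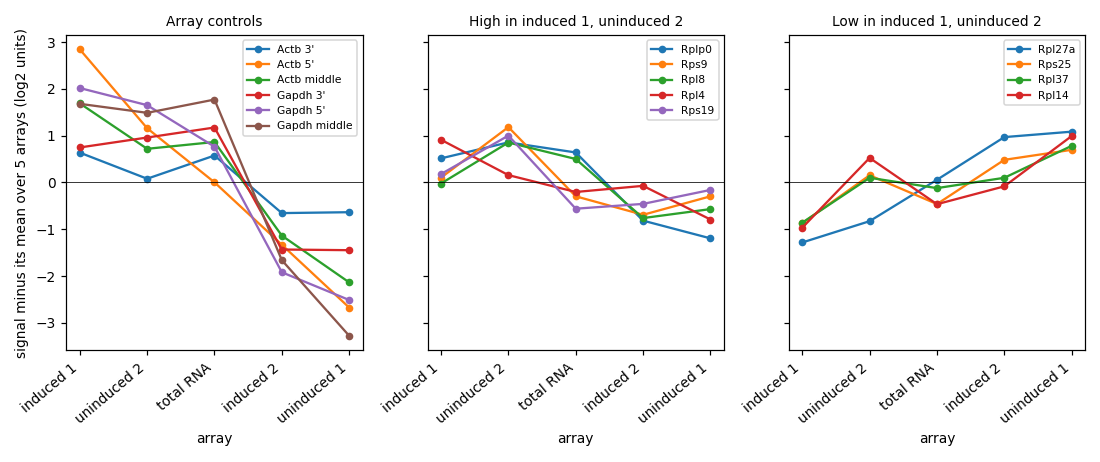
Signal minus its own mean over the 5 arrays (y axis, log2 units) on each array (x axis) for Gapdh and β-actin control probe sets (left), 5 ribosomal protein genes high on labelled induced array 1 and labelled uninduced array 2 (middle) and 4 that were low there (right), all chosen for this pattern. Rplp0 falls with the controls on labelled induced array 2 and labelled uninduced array 1, where Rpl27a is high.

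Without those 2 arrays, 1 array labelled induced remained against 1 labelled uninduced and total RNA, so only log2 folds are given. The median log2 fold of the members was -0.29, and 37 of 48 were below 0 (77.1%, against 45.6% of all genes). The share of bright genes below 0 without these arrays is not given here. Rps6 had a log2 fold of 1.59.

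By place in the ribosome the groups were small. Of the stalk proteins, Rplp0 and Rplp2 had log2 folds of -0.25 and -0.09, neither below an adjusted p of 0.5. At the tunnel exit, Rpl35 and Rpl19 were lower, and Rpl22 and Rpl39 did not pass. Of 5 proteins at the mRNA exit (Rps7, Rpsa, Rps25, Rps26 and Rps28), with log2 folds of -0.40 to 0.11, Rpsa alone was lower. Fau, which encodes a small-subunit protein fused to a ubiquitin-like one, was at 10.61 and 10.33, then 11.08 and 11.46, then 10.83 (log2 fold -0.65, adjusted p = 0.450). The median log2 fold was -0.47 over the 22 bright large-subunit members and -0.21 over the 20 bright small-subunit members, and the 2 were not tested against each other.

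Among bright members with a promoter entry, the 20 with a pyrimidine run had a median log2 fold of -0.29 in the central comparison (17 below 0) and the 17 without one -0.25 (11 below 0). Against the arrays labelled uninduced alone the medians were -0.59 and -0.19, and against total RNA they were -0.03 and -0.12, in the opposite order. Of 19 other genes listed for mRNAs with a TOP tract, mostly of translation factors, 16 were measured and none was called. Their median was -0.01 in the central comparison, with 3 lower and 1 higher at an adjusted p under 0.5. Fau, the small-subunit protein gene described above and no member, was 1 of the 3 lower. Among the lower, Eef1d, a subunit of elongation factor 1, was at 11.44 and 11.67, then 12.67 and 12.94, then 12.86 (log2 fold -1.27, SE 0.12, adjusted p = 0.100). Eef2, the translocation factor, was at 11.11 and 8.70, then 6.61 and 11.20, then 10.23, low on the same 2 arrays as Rplp0.

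Other genes of ribosomes and translation are given for comparison with the members, without a test between lists. Of 76 mitochondrial ribosomal protein genes, which build a separate ribosome, 1 was called higher (Mrpl49, log2 fold 1.86) and 2 lower (Mrpl58, -3.07, and Mrps24, -2.05), with a median of 0.25. Of 37 ribosome biogenesis genes, Sbds, which helps to release eIF6 from the large subunit, was called higher (2.72) and Nop56, a core protein of box C/D snoRNPs, lower (-2.03), with a median of -0.26. Of 28 initiation factor genes, Eif2b2, a subunit of the exchange factor for eIF2, was called lower (-2.52), with a median of -0.42. The log2 folds of the 48 members ran from -0.92 to 1.37, and those of the 16 other TOP genes, none of them called, from -1.27 to 0.556. The lists also differed in signal, with 47 of the 76, 15 of the 37 and 23 of the 28 genes bright.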

How the data were processed

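The authors amplified RNP-IP and total RNA by two-cycle labelling and hybridised it to 5 GeneChip Mouse 430 2.0 arrays. The deposited values are RMA-normalised log2 signals (RMA version not given in the sources used here) of 45101 probe sets and were used as they stand. RMA aligns the distributions of all arrays, so a shift of all mRNAs at once would not be seen. Precision is limited by the number of arrays, and p-values measure the spread between these samples, which may be technical.

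The array annotation, with symbols updated through RefSeq, gave 34958 probe sets 1 gene, 932 several and 9211 none. Members, gene lists and limits were chosen with earlier results of these data known. Genes named were Rplp0, Hnrnpd, called members, the 10 highest and 10 lowest, paralogs with parents and called genes of related lists. Rpl36, Rpl23, Rpl5, Eef1d, Eef2 and members named for array gaps or dim probe sets were chosen after their values were seen.

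Tests used limma 3.58.1 in R 4.3.3 (linear models with empirical Bayes, Benjamini-Hochberg over 45101 probe sets), with 2 arrays against 3 (3 residual and 0.962 prior degrees of freedom), and a model of 3 groups for each pair (2 and 0.877). The scripts were tested on simulated data.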

Additional observations from a re-analysis of the deposited data

How the results depend on the processing

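With 5 arrays and a lenient adjusted p, counts at that threshold moved most, and the cause of each move was not tested. Shares of all genes under the changed settings are not given here, so the moved counts are not read as a result about the members. The median of the members kept its sign in each of the 4 comparisons under every setting run. In the central comparison it was -0.19 with cyclic loess, -0.303 for the largest-fold probe sets and -0.288 without the 2 arrays of low Gapdh 5′ signal, and -0.27 to -0.192 leaving out 1 array at a time. Against the arrays labelled uninduced it was -0.189 with cyclic loess, -0.462 for the largest-fold probe sets, -0.19 without _x_at and _s_at probe sets, -0.335 for bright members alone and -0.341 to -0.234 leaving out 1 array. For labelled uninduced against total RNA it was 0.076 with cyclic loess and 0.128 to 0.251 leaving out 1 array, and for labelled induced against total RNA -0.189 to -0.0717.

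In the central comparison the 12 lower members became 5 with trend and robust eBayes, 6 without _x_at and _s_at probe sets and 5 to 15 leaving out 1 array (6 without uninduced replicate 1, 5 without uninduced replicate 2). The 1 higher member became 4 among the brightest probe sets alone, 4 with the arrays labelled uninduced alone as controls and 0 without uninduced replicate 2. Rplp0 changed sign, to 0.4139 without induced replicate 2, 0.1262 without uninduced replicate 2 and 0.01826 with the arrays labelled uninduced alone as controls, in a range of -0.9172 to 0.4139. At an adjusted p under 0.05, every count of calls in the 4 comparisons was 0.

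Against the arrays labelled uninduced, leaving out 1 array gave 0 to 1 called lower (1 without induced replicate 2), 1 to 4 higher (1 without either array labelled induced) and 10 to 19 lower. For labelled uninduced against total RNA, the 7 higher members became 3 with median centring, 3 with cyclic loess, 4 among the brightest probe sets, 1 with trend and robust eBayes and 8 to 11 leaving out 1 array (11 without uninduced replicate 1). The 2 lower became 6 with the probe set of largest fold, where 2 were called, 4 without _x_at and _s_at probe sets, 1 for bright members alone, where 0 were called, and 1 to 3 leaving out 1 array (1 without either array labelled induced). For labelled induced against total RNA, the 4 higher became 2 with cyclic loess, 1 among the brightest probe sets and 1 with trend and robust eBayes, and 4 to 5 leaving out 1 array. The 9 lower became 4 with trend and robust eBayes and 8 to 17 leaving out 1 array (17 without induced replicate 2). There 0 were called higher with the mean over probe sets, and 2 were called lower with the probe set of largest fold and 0 for bright members alone.

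The main tests used no replicate block. Induced 1 and uninduced 1 deviated from their group means with r = -0.5 over 45101 probe sets. With 2 arrays in each group, whose deviations mirror each other, this cannot show whether the replicates were paired by number. With the replicate block, 5 members were lower in the central comparison, 1 higher and 3 lower against the arrays labelled uninduced, 0 higher, 0 lower and 0 called for labelled uninduced against total RNA, and 1 higher and 2 lower for labelled induced against total RNA. With the crossed pairing as the block, 2 were higher in the central comparison, 23 lower against the arrays labelled uninduced and 11 higher for labelled uninduced against total RNA. Shares of all genes under either block are not given here, so these counts are not read as a result about the members. The crossed block, the limit to bright members and the removal of 2 arrays were chosen after seeing the data. Signals near background, as for the 6 dim members, and the top of the signal range limit what these arrays can show.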
